A study of Mus musculus with 7 samples.

Results

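The study held 2 kinds of control, and they were set against each other here: 1 library of cells labelled empty vector (Ctrl) and 2 libraries titled wild type (WT1 and WT2), 3 of the 7 libraries of the series, chosen by title. All came from the R1 mouse embryonic stem cell line, taken at day 4 as embryoid bodies, the aggregates in which stem cells leave pluripotency and begin to form germ layers. They were started as hanging drops of 500 cells after depletion of feeder cells, in serum medium without LIF. The other 4 libraries carried a deleted promoter of the long non-coding RNA gene Meteor (pKO1, pKO2), an inverted one (pInv) or a CRISPR knockdown of Meteor (KD), and serve below as reference points. The labels do not say which vector Ctrl received, whether it was 1 clone or a pool, or whether Ctrl and KD came from the same parent cells. They also contradict themselves: the genotype field gives a Meteor promoter knockout for WT1 and WT2, an inversion for pKO1, and wild type for pKO2 and pInv. It names dCas9 for KD where the design text names Cas9. Groups follow the titles, and each direction against "wild type" depends on that.

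Lines that carry a vector have usually passed through selection and extra passages that unmodified cells have not, so an empty-vector line is the usual baseline for a knockdown. In day 4 embryoid bodies the main event is formation of the primitive streak, where T, Mixl1, Eomes and Lhx1 mark the cells that leave the epiblast to become mesoderm and endoderm. A comparison of controls asks which genes differ without any change to the studied locus.

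WT1, WT2 and Ctrl held 2564478, 1898350 and 2034596 expected counts. The 45S rRNA precursor took 17.4%, 24.1% and 22.5% of them. Levels are given as CPM, counts scaled to a common library size after trimmed-mean (TMM) correction. With 1 Ctrl library no standard deviation exists for that group. Ratios between 2 libraries carry an exact binomial 95% interval that covers counting error only, with no term for spread between replicate libraries. No molecular identifiers are named, so duplicate reads may be among the counts and the interval may be too narrow. Nothing in the labels says that libraries came from separate cultures, and none names a batch, so batch and group cannot be told apart. Of 17 macrophage markers looked up, 12 had no count in Ctrl, 9 in WT1 and 12 in WT2. The complement gene C1qc was the exception at 71.6, 67.8 and 131 CPM. In KD 5 of the 17 had no count, and the summed level was 433 CPM against 71.3 to 137 in the other 6 libraries. Of 20 feeder fibroblast markers, 9, 5 and 7 had no count, and their summed levels were 37.3, 46.6 and 57.1 CPM.

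No gene passed edgeR's quasi-likelihood test for Ctrl against WT at a Benjamini-Hochberg adjusted p under 0.05, 0% of the 10265 tested. In that test 142 had an unadjusted p under 0.05, a smaller share than this threshold would pass if no gene differed. DESeq2 and limma-voom also called 0. Ctrl against pKO, pInv and KD, which shares no WT library, likewise called 0%, with 107 genes at an unadjusted p under 0.05. What follows is therefore ordered by size and by the overlap of libraries, and a p that misses the threshold does not show that the controls were alike.

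The 5 genes with the smallest p for Ctrl against WT all had an adjusted p of 1 in edgeR's test. Foxd2os, a non-coding transcript beside the forkhead gene Foxd2, had 1.02 CPM in Ctrl, 12.7 in WT1 and 14.4 in WT2. The other 4 libraries ran from 8.49 to 13.95 CPM, so Ctrl was the low one of all 7. Xlr3b, an X-linked gene of the Xlr family, had no count in Ctrl, which allows up to 1.52 CPM, against 6.37 and 21.0 in WT and 6.46 to 11.1 elsewhere. Ahnak, a very large scaffold protein, stood at 17.3 CPM in Ctrl against 3.75 and 3.60 in WT. In Ahnak the 4 modified libraries were at 11.1 to 16.6 CPM, so there the WT pair was low rather than Ctrl high. The remaining 2, Spin2d and 2210408I21Rik, are described below.

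Ctrl lay close to WT1 and far from WT2. Over 4682 genes whose mean reached 20 CPM, the SD of the log2 ratio was 0.37 between Ctrl and WT1, 0.70 between Ctrl and WT2 and 0.75 between WT1 and WT2. Ctrl was nearer to WT1 for 70.2% of these genes, and lay between the 2 WT libraries for 46.6%. At 2-fold, 20 genes were higher and 42 lower in Ctrl than in WT1, while 402 were higher and 185 lower than in WT2. Between WT1 and WT2, 485 were higher and 182 lower in WT1. The 2 WT libraries thus differed from each other more than Ctrl differed from WT1. This was not particular to Ctrl. Over the same genes the SD to WT1 was 0.37 for pKO1, 0.38 for pInv, 0.41 for KD and 0.47 for pKO2. To WT2 it was 0.79, 0.70, 0.88 and 0.56 for the same libraries.

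**Figure D1:**
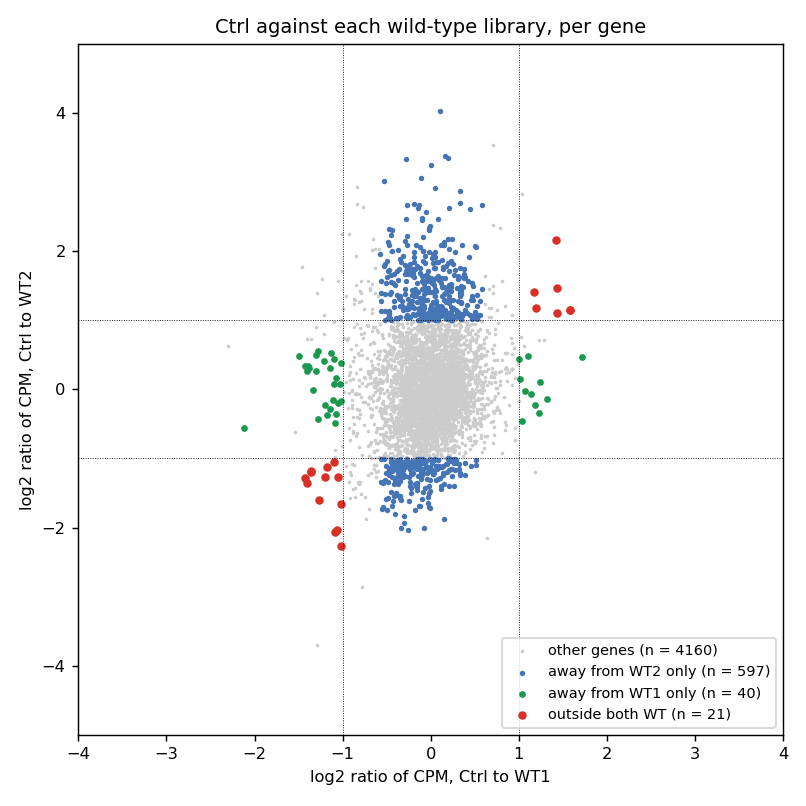
Each point is 1 gene, with its log2 ratio of Ctrl to WT1 on the x axis and of Ctrl to WT2 on the y axis; dotted lines mark 2-fold. Blue points (597, away from WT2 only) far outnumber the red ones (21, outside both); 4 features, all further copies of repeated transcripts, lie beyond the axes.

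Few genes put Ctrl 2-fold or more outside both WT libraries: 8 higher (0.168% of 4757 features at 20 CPM or more) and 13 lower (0.273%). These counts are by size, with no test. In both directions together the share was 0.441% for Ctrl. The same rule against the same WT libraries gave 0.332% for pKO1, 0.511% for pKO2, 0.484% for pInv and 2.89% for KD, so the share in Ctrl was inside the range of the promoter lines. The part of the macrophage markers in the KD share was not tested. With WT2 left out the count of 21 became 95, and with WT1 left out it became 744. Of the 21 features, 17 were single genes and 4 were merged rows or further copies. Just inside the 2-fold bound lay Prxl2a (log2 ratio to the nearer WT library of −1.02) and just outside it Sirt1 (26.4 CPM against 12.7 and 9.003).

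Among the 6 single genes above both WT libraries, Ctrl lay within the range of the other 4 libraries in 4. Spin2d, an X-linked member of the spindlin family of chromatin readers, had 116 CPM in Ctrl against 42.4 in WT1 and 41.4 in WT2, 2.74-fold (95% counting interval 2.18 to 3.47) and 2.81-fold (2.14 to 3.73). It was at 95.5 to 123 CPM in pKO1, pKO2 and pInv but at 27.7 in KD, so WT and KD were low and the other libraries did not overlap them. The 3′ reads of 2210408I21Rik, a gene of no assigned function, gave 56.9 CPM in Ctrl, 20.6 in WT1 and 12.004 in WT2, and 35.2 to 64.6 elsewhere. Vcan, which encodes the matrix proteoglycan versican, was at 24.4 CPM against 10.1 and 10.2, with 16.002 to 28.7 elsewhere. For both genes the WT pair was below all 5 other libraries, Ctrl included. That held for 3 of the 6 genes, and for 3.76% of all genes tested. The 6 were chosen for high Ctrl against both WT libraries, so the count follows in part from the choice.

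Cnn2, an actin-binding calponin, had 36.6 CPM in Ctrl against 15.7 and 13.2 in WT, and pInv overlapped WT at 13.6. Rex2, a zinc finger gene, had 26.4 CPM against 8.25 and 11.4, with KD between the WT values at 10.6. Rex2 also has a further copy with identical values in the table, so it counts as 1 signal. None of the 6 separated Ctrl from every other library by 2-fold.

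The sixth gene was Mir136, whose hairpin lies antisense to Rtl1 in the imprinted Dlk1-Dio3 domain of chromosome 12, where the maternal chromosome gives a series of non-coding RNAs (Meg3, Rian, Mirg) and many microRNAs. The libraries were primed on poly(A) tails, so reads on this row come from longer transcripts over the hairpin and do not measure the mature microRNA. Mir1188, in the same domain, was among the genes away from WT1 only. Mature sequences of both genes from RefSeq (GRCm38.p6, plus strand of chromosome 12) follow, with the seed, bases 2 to 8, in capitals:
miR-136-5p: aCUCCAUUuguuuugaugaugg
miR-136-3p: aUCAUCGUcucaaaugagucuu
miR-1188-5p: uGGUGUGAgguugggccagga
The 3 seeds differ from each other, and they have no bearing on the CPM of the rows. The sequence of miR-1188-3p is left out.

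The Mir136 row had 41.1 CPM in Ctrl, 14.6 in WT1 and 18.6 in WT2. The other 4 libraries held 26.7 to 38.2 CPM, so Ctrl was the highest of the 7 and the WT pair the lowest. Rian was at 187 CPM in Ctrl, 118 and 106 in WT, and 203 to 301 elsewhere, so Ctrl lay between the WT pair and the other 4 (log2 difference of Ctrl from WT 0.74, SE 0.31, edgeR adjusted p of 1). The domain did not move as 1 block: the merged row that holds Meg3 had 2825 CPM in Ctrl, between 1451 in WT1 and 4709 in WT2, and the one that holds Mirg had 162 against 83.2 and 144. Mir1188 was at 39.6 CPM in Ctrl, 15.4 in WT1 and 43.8 in WT2. Over the 23 tested imprinted genes, Ctrl was above both WT libraries in 12 (52.2%) and below both in 2 (8.70%). Over all 10265 genes these shares were 28.0% and 28.3%.

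**Figure D2:**
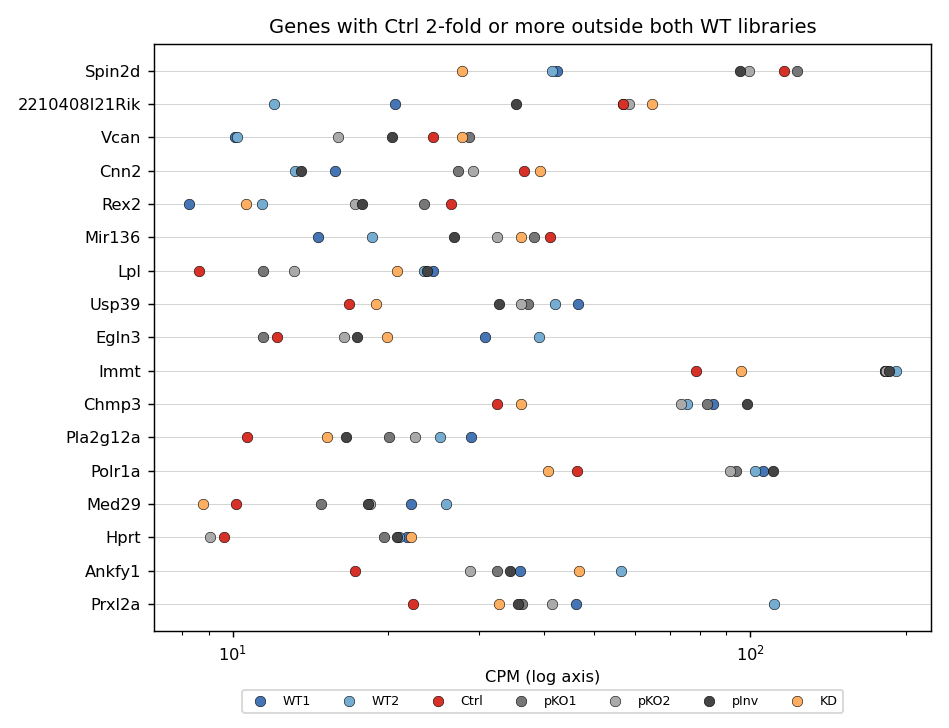
CPM (log axis) of the 17 single genes with Ctrl 2-fold or more outside both WT libraries, 1 point per library. In Immt, Chmp3, Polr1a and Usp39, Ctrl (red) and KD (orange) sit together below the other 5 libraries; in Egln3, Vcan and Mir136 the WT points (blue) stand apart from the rest.

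Of the 11 single genes below both WT libraries, 4 were neighbours on chromosome 6: Immt, Chmp3, Polr1a and Usp39. Immt, the core subunit of the complex that shapes mitochondrial cristae, had 78.7 CPM in Ctrl, 182 in WT1 and 191 in WT2 (0.432-fold, interval 0.358 to 0.519, and 0.411-fold, 0.337 to 0.499). It stood at 182, 183 and 186 CPM in pKO1, pKO2 and pInv, and at 96.0 in KD. The 5 libraries other than Ctrl and KD thus lay between 182 and 191 CPM, well above both. Chmp3, a component of the ESCRT-III membrane scission machinery, had 32.5 CPM in Ctrl and 36.0 in KD against 73.4 to 98.5 in the other 5. Polr1a, the largest subunit of RNA polymerase I, had 46.2 in Ctrl and 40.6 in KD against 91.5 to 111. Usp39, a splicing factor of the tri-snRNP, had 16.8 and 18.9 against 32.7 to 46.5. Ctrl and KD did not overlap the other 5 libraries in any of the 4.

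The neighbours of these genes were then followed in reference order, a choice made after their values were seen. Among genes whose mean reached 10 CPM, the run was extended from Immt until 2 successive genes had Ctrl at 0.8 or more of the median of WT1, WT2, pKO1, pKO2 and pInv. It held 16 genes, from Rmnd5a to Suclg1. The ratio of Ctrl to that median had a middle value of 0.496 over the run (range 0.254 to 0.805), and 14 of the 16 were below both WT libraries. Beyond Immt and its 3 companions the run held Kdm3a, a histone demethylase (8.63 CPM in Ctrl against 27.7 and 15.005 in WT), and Mrpl35, a mitochondrial ribosomal protein (28.9 against 48.0 and 69.6). It also held Tcf7l1, a repressor of WNT targets (74.6 against 182 and 101), and Capg, an actin-capping protein (5.58 against 18.0 and 36.0). Mat2a, which makes the methyl donor S-adenosylmethionine, was closest to the other libraries, at 442 CPM against 530 and 549. The ratio in the 8 genes before the run was 0.878 to 1.20 in Ctrl, and Serbp1, an mRNA-binding protein next to it, had 3645 CPM against 3973 and 3685. In the 8 genes after the run the ratio was 0.514 to 1.74.

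KD was also low over most of these genes. Its ratio to the same median had a middle value of 0.559 (range 0.289 to 0.966), and it was under 0.8 in 15 of the 16. The run was chosen by Ctrl over the median of the same 5 libraries, so the reference is shared and the KD values are a description. Ctrl was below all 5 in 13 of the 16 genes, and both Ctrl and KD were in 12. Over all 6452 genes in order, Ctrl was below all 5 in 874 (13.5%) and both were in 389 (6.03%). The run was chosen for low Ctrl against these 5 libraries and the 6452 genes were not. Both counts in the run therefore follow in part from the rule and do not measure an excess. In the contrast of KD with pKO and pInv, all 16 were lower in KD, with a median log2 difference of −0.83, while 54.2% of genes in order were lower. That contrast leaves out Ctrl and WT, but pKO and pInv were part of the median that set the run, and the 54.2% is over genes not chosen in that way. None of the 16 passed: the smallest adjusted p in edgeR's test was 0.348. Single values in this contrast were −1.32 (SE 0.33) for Polr1a, −1.28 (SE 0.35) for Chmp3 and −0.94 (SE 0.31) for Immt. The edges were set by Ctrl, since the run ended at 2 successive genes with Ctrl at 0.8 or more. KD had no part in that rule, so the 2 libraries cannot be compared for how sharp the edges were. In the 8 genes before the run the KD ratio was 0.557 to 1.57, with 2 of the 8 under 0.8, and Gadd45a, a stress-response gene 2 places before the run, was at 0.557 in KD and 1.11 in Ctrl. In the 8 genes after it the KD ratio was 0.840 to 1.53.

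The run was also the lowest point of a running median over 11 neighbouring genes across the genome. For Ctrl against the median of the 5 libraries, the lowest of 6251 windows was centred on Mrpl35, at a log2 value of −1.11, and the lowest on any other chromosome was −0.55. For KD the lowest window was centred on the same gene, at −1.05, with −0.45 as the lowest elsewhere. The empty vector and the CRISPR knockdown are the only libraries whose labels name an introduced agent in place of an allele. What Ctrl and KD have in common at this place was not tested.

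**Figure D3:**
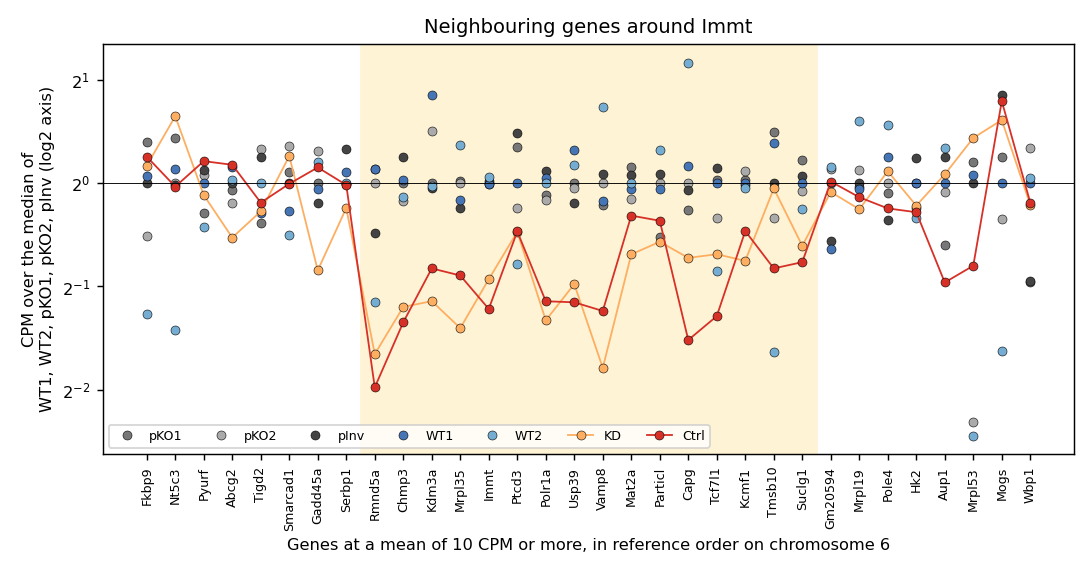
CPM over the median of WT1, WT2, pKO1, pKO2 and pInv (log2 axis) for 32 genes in reference order on chromosome 6, with the 16-gene run shaded. The ends of the run were set by Ctrl. Ctrl (red line) and KD (orange line) lie below 1 throughout the run, where Ctrl drops at Rmnd5a and KD is at 0.557 already in Gadd45a before it, while most points of the other 5 libraries stay near 1.

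The other 7 genes below both WT libraries were of mixed roles. Egln3, a prolyl hydroxylase that marks hypoxia-inducible factors for destruction and is itself induced by hypoxia, had 12.2 CPM in Ctrl against 30.7 and 39.0 in WT, and 11.5 to 19.9 elsewhere. The WT pair was therefore high and Ctrl lay within the other 4. Lpl, lipoprotein lipase, had 8.63 CPM against 24.4 and 23.4 and Ctrl was the lowest of 7 libraries. So were Pla2g12a, a secreted phospholipase (10.7 against 28.9 and 25.2), Ankfy1, an endosomal effector of Rab5 (17.3 against 36.0 and 56.4), and Prxl2a, a peroxiredoxin-like protein (22.3 against 46.1 and 111). Hprt, of purine salvage, had 9.65 CPM against 21.7 and 21.0, with pKO2 lower still at 9.03. Med29, a Mediator subunit, had 10.2 against 22.1 and 25.8, with KD at 8.77. Over all 11 genes, Ctrl was below the other 4 libraries in 7 and within their range in 4. Both WT libraries were above all 5 others in 5, as in 3.99% of all genes tested. The 11 were chosen for low Ctrl against both WT libraries, so these counts follow in part from the choice.

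The 4 remaining features were rows of near-identical transcripts: the copy of Rex2 named above and 3 rows of the H2A histone genes H2ac23 and H2ac24. A copy of H2ac23 held 2077 CPM in Ctrl, 137 in WT1, 3.60 in WT2 and 5.74 to 436 elsewhere. The merged row of H2ac24 and H2ac23 held 526 CPM in Ctrl against 1103 and 2157. Reads of these copies are divided between rows by the estimate, so neither direction can be assigned to a gene. Replication-dependent histones that have rows of their own were higher in Ctrl than in both WT libraries in 4 of 12 and lower than both in 2, near the 28.0% of all genes for the first. H1f4, a linker histone, had 188 CPM against 123 and 157.

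Egln3 belongs to the hypoxia response, in which cells short of oxygen stabilise hypoxia-inducible factors that switch on glucose uptake, glycolysis and their own feedback inhibitors. Of 21 tested members, Ctrl was below both WT libraries in 12 (57.1%) and above both in 2 (9.52%). The median log2 difference was −0.64 from WT1 and −0.74 from WT2, where all genes tested had −0.01 and 0.01. Egln1, the main oxygen sensor of the pathway, had 12.7 CPM in Ctrl, 28.1 in WT1 and 24.0 in WT2, and 16.7 to 22.6 elsewhere. Slc2a1, the glucose transporter GLUT1, had 11.2 against 18.4 and 25.2. Kdm3a, another known hypoxia target, is part of the chromosome 6 run, so its low level in Ctrl and KD cannot be told apart from that of its neighbours. None of the 21 passed edgeR's test.

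The 4 modified libraries had sums close to that of Ctrl. Summed over the 21, the level was 1317 CPM in WT1 and 1169.8 in WT2, against 910.2 in Ctrl and 896 to 949 in pKO1, pKO2, pInv and KD. Both WT libraries were thus above all 5 others in the sum, which did not overlap. Gene by gene this held for 3 of 21, against 3.99% of all genes tested. The 2 WT libraries reached that sum through different genes. Ddit4, a stress-induced inhibitor of mTORC1, had 177 CPM in WT1 and 40.8 in WT2 with 68.5 in Ctrl, and Higd1a, an inner mitochondrial membrane protein, had 380.1, 604 and 362 CPM. The difference between WT2 and Ctrl in Higd1a made up most of their difference in the sum. Ddit4 and Higd1a were picked after their values were seen.

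Glycolytic genes were split in a similar way. Of 16 tested, Ctrl was below both WT libraries in 10 (62.5%) and above both in 1, with median log2 differences of −0.22 and −0.48. Summed over the 16, the level was 6565 CPM in WT1 and 7186 in WT2, against 5639 in Ctrl. In pKO1, pKO2, pInv and KD the sums were 4941, 6030, 5964 and 5179 CPM, so Ctrl lay within their range. Gene by gene, both WT libraries were above all 5 others in 1 of 16, against 3.99% of all genes tested. Hk1, a hexokinase, had 8.63 CPM against 18.0 and 28.8, and Aldoc, an aldolase, had 24.4 against 40.1 and 82.8. Gapdh had 1139.7 CPM in Ctrl, 1562 and 1528 in WT, and 886 to 1827 elsewhere. In cholesterol and fatty acid synthesis, 13 of 25 tested genes were below both WT libraries and 0 above both, with medians of −0.25 and −0.41. Under each other scaling tried these medians kept their sign, and none of these genes passed edgeR's test.

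The largest class of differences was between Ctrl and WT2 alone. In 376 features Ctrl was 2-fold or more above WT2 and within 1.5-fold of WT1 (7.38% of 5096 at the level), and in 221 it was as far below WT2 (4.34%). Scaling by library totals turned this split into 472 above and 100 below, and TPM values into 425 and 112. Of the features, 365 and 218 were single genes. Among the 365, Ctrl lay within the range of the 4 modified libraries in 276, above all 4 in 79 and below all 4 in 10. Among the 218 these counts were 140, 6 and 72. The same counts over all genes are not given here, so these describe where Ctrl lay and do not set the class apart from other genes.

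The genes above WT2 only held most of the primitive streak list. Of 14 primitive streak genes, 10 were in this class and 0 were below, and the median log2 ratio of Ctrl was 1.55 to WT2 but −0.09 to WT1. T, the T-box factor brachyury, had 340.1 CPM in Ctrl, 294 in WT1 and 54.6 in WT2, 6.23-fold above WT2 (interval 4.996 to 7.84) and 1.16-fold above WT1 (1.04 to 1.28). Mixl1, a homeobox factor of mesendoderm, had 81.2, 98.95 and 7.20 CPM, and Lhx1, a LIM-homeobox factor, had 492, 531 and 58.2. Cer1, a secreted inhibitor of NODAL, had 58.9, 58.8 and 5.40 CPM, with pInv low as well at 13.6. The 4 modified libraries had T at 178 to 358 CPM and Lhx1 at 258 to 1138, so WT2 was the lowest in both. In bulk RNA, fewer streak cells and less RNA per cell cannot be told apart.

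Eomes itself differed less. It had 421 CPM in Ctrl, 459 in WT1 and 312 in WT2, a mean of 385 ± 104 (SD, n = 2) for WT, and 337 to 445 elsewhere. Its log2 difference of Ctrl from WT was 0.13 (SE 0.37, edgeR adjusted p of 1). The non-coding neighbour 4933432G23Rik had 101 CPM, 85.1 and 167, with Ctrl between the WT values. No row was matched to Meteor by name, and its level is not analysed here. The 2 genes named for the locus gave no separation of Ctrl from both WT libraries.

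**Figure D4:**
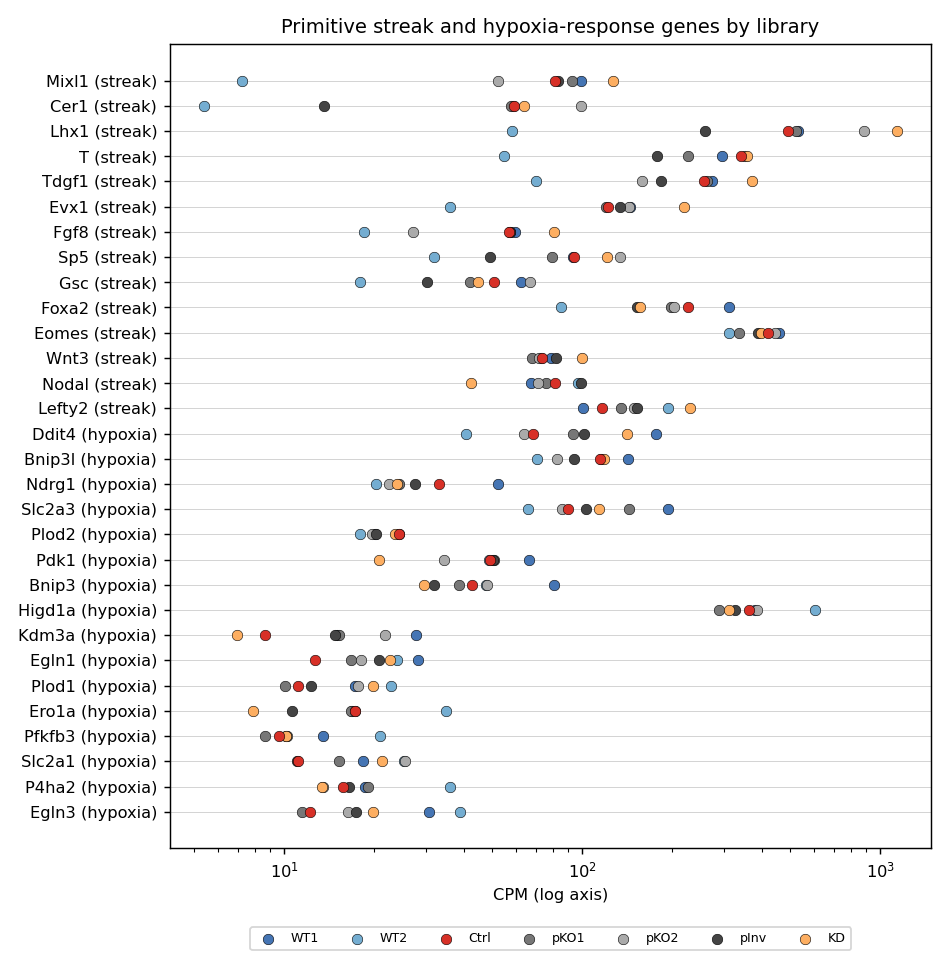
CPM (log axis) of 14 primitive streak genes and of the 16 hypoxia-response genes whose mean reached 10 CPM, 1 point per library, each set ordered by the log2 ratio of Ctrl to WT2. In the streak genes from Mixl1 to Foxa2, WT2 (light blue) is the lowest point, while Ctrl (red) lies beside WT1; in Egln3, at the foot, both WT points are above the rest.

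The 365 single genes above WT2 only were split by where pKO2 stood, after the values were seen. In 73 of them pKO2 was also 2-fold or more below Ctrl, in 193 it was within 1.5-fold or above, and 99 lay between. The first group held Ndufa4, a subunit of cytochrome c oxidase (39.1 CPM in Ctrl, 34.1 in WT1, 3.001 in WT2 and 11.9 in pKO2), and Rpl39, a very small ribosomal protein (597, 580, 78.0 and 161). Spcs1, of the signal peptidase, had 33.5, 29.99, 2.40 and 13.1 CPM, and Nxt1, an mRNA export factor, had 28.4, 22.5, 3.60 and 11.5. The streak genes T, Lhx1, Cer1 and Mesp1 belonged to the second group, with 353, 884, 98.9 and 127 CPM in pKO2. In Ndufa4, Spcs1 and Nxt1 pInv was low as well, at 13.6, 12.7 and 14.9 CPM, while in Rpl39 it was at 576.

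Other members rested on rows that cannot be assigned with ease. Mir703, the gene furthest above WT2, had 131 CPM in Ctrl, 123 in WT1, 7.20 in WT2 and 22.98 in pKO2. As for Mir136, such reads do not measure the microRNA. H2ac13, a further H2A histone gene with close copies, had 123, 178, 14.4 and 6.15 CPM. Pcdh7, a protocadherin, had 54.3, 43.1 and 6.60 CPM in Ctrl, WT1 and WT2, and 24.2 to 100.2 elsewhere. Cdh2, N-cadherin, which replaces E-cadherin as cells leave the epiblast, had 109, 94.8 and 23.4 CPM.

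The genes below WT2 only had a place in common. Of the 218 single genes, 83 (38.1%) lay on chromosome 11 and 48 (22.02%) on chromosome 8, which hold 9.79% and 6.02% of the genes at the level. On these 2 chromosomes 16.7% of the genes at the level were in the class, against 2.08% on the other chromosomes. The opposite class, above WT2 only, had 5.49% of its 364 placed genes there. Chromosomes were taken from the RefSeq table of GRCm38, and the 2 chromosomes were singled out after the counts were seen.

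The shift was also seen in the medians of these chromosomes. The median log2 ratio of Ctrl to WT2 was −0.51 over the genes of chromosome 8 and −0.43 over those of chromosome 11, while the other chromosomes ran from −0.07 to 0.18. Against WT1 the same 2 medians were −0.08 and −0.05, and against KD 0.01 and 0.03. Against pInv chromosome 8 was at −0.54 and chromosome 11 at −0.09. WT2 therefore stood high on both chromosomes and pInv on chromosome 8, with Ctrl beside WT1, pKO2 and KD. Against pKO1 chromosome 8 was at −0.20. Gene dosage was not measured, and its part in these medians was not tested.

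**Figure D5:**
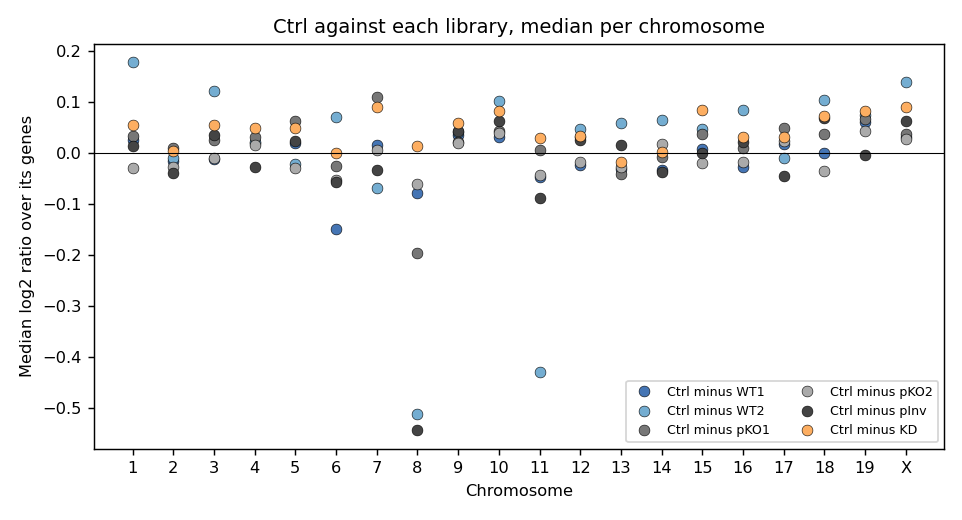
Median log2 ratio of Ctrl to each other library (y axis) over the single genes of each chromosome (x axis). The points for WT2 drop to −0.51 on chromosome 8 and −0.43 on chromosome 11, and the point for pInv drops to −0.54 on chromosome 8.

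The 10 genes furthest below WT2 lay on these chromosomes and off them. Jund, an AP-1 subunit on chromosome 8, had 22.8 CPM in Ctrl, 28.5 in WT1 and 90.03 in WT2, with pInv the highest of the modified libraries at 50.9. Mvd, a mevalonate-pathway enzyme on chromosome 8, had 62.9, 78.0 and 226 CPM, with pInv at 147 and the other 3 at 66.0 to 91.2. Chd9, a chromatin remodeller on the same chromosome, had 58.4, 66.0 and 198 CPM. On chromosome 11, Kctd2, a ubiquitin ligase adaptor, had 31.0, 44.2 and 106 CPM, and the histone gene H2bu2 had 11.2, 13.5 and 48.6. Nefh, a neurofilament on chromosome 11, had 5.08, 4.50 and 21.0 CPM, and Cpe, a prohormone-processing carboxypeptidase on chromosome 8, had 9.14, 12.4 and 34.2. Off these chromosomes, Rnf223, a RING finger gene on chromosome 4, had 4.57, 5.997 and 21.0 CPM. Rbp7, a retinol-binding protein on the same chromosome, had 4.57, 4.87 and 21.0. Also off them, Pfkp, a phosphofructokinase, had 12.7, 19.1 and 44.4 CPM. The 131 genes on the 2 chromosomes had a median log2 ratio of −1.16 to WT2 and −0.15 to WT1, and the other 87 had −1.13 and −0.16.

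Only 40 features separated Ctrl from WT1 while staying within 1.5-fold of WT2: 13 higher (0.262% of 4964) and 27 lower (0.544%). Scaling by library totals turned this split into 7 and 45. Of the 27 lower genes, 8 lay on chromosome 6, which holds 215 genes at the level. Of the 27, 1 (Tcf7l1) belongs to the run where Ctrl and KD were low, so the count and the median of this chromosome hold both. WT1 stood high there against the other libraries: its highest running median over 11 genes, a log2 value of 0.83, was centred on Lpcat3 on that chromosome. The chromosome 6 median of Ctrl against WT1 was −0.15, the lowest of all chromosomes for that pair.

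The 5 genes furthest below WT1 were of mixed roles. Gins2, of the replicative helicase, had 4.57 CPM in Ctrl, 22.9 in WT1 and 7.20 in WT2, with 10.3 to 39.5 elsewhere. Cenpw, a centromere protein, had 34.5, 94.5 and 27.0 CPM, and Rae1, an mRNA export factor, had 13.2, 36.4 and 10.8. Psmg2, a proteasome assembly chaperone, had 16.2, 47.6 and 11.4. In these 4 genes Ctrl and WT2 were low together and every modified library was above Ctrl. Over all 27 genes below WT1 only, Ctrl was below the 4 modified libraries in 20 and within their range in 7. The 27 were chosen for low Ctrl against WT1, so this count follows in part from the choice. Its share over all genes is not given here. Mogat2, an enzyme of triglyceride synthesis, had 7.11, 20.2 and 5.40 CPM, and 5.25 to 12.006 elsewhere. Over all 31 tested genes of DNA replication and mitosis, the median log2 difference of Ctrl was −0.12 from WT1 and 0.17 from WT2. Above WT1 only, Vps13b, a lipid transfer protein, had 23.4, 9.37 and 21.6 CPM, and the olfactory receptor Olfr172 had 40.1, 11.6 and 28.8.

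Other cell state lists gave mixed pictures. The naive pluripotency list, with Pou5f1, Nanog and Sox2, had medians of 0.37 against WT1 and 0.21 against WT2 over 13 genes. Sox2 was at 118 CPM in Ctrl against 88.1 and 101, while Pou5f1, which encodes OCT4, was between the WT libraries at 1536 against 1359 and 2188. For 12 tested genes of nascent and paraxial mesoderm the medians were −0.34 and 1.40, with Mesp1 at 71.6 CPM in Ctrl, 79.1 in WT1 and 10.8 in WT2. Msx1, a BMP target, stood above both WT libraries by less than 2-fold from the nearer one, at 53.3 CPM against 29.99 and 17.4, with an edgeR adjusted p of 1. Cytosolic ribosomal protein genes were above both in 21 of 46 and below both in 1, with medians of 0.05 and 0.32; the first turned to −0.05 when libraries were scaled by totals.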

How the data were processed

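Polyadenylated RNA of day 4 embryoid bodies was read from its 3′ end (Lexogen QuantSeq), per the labels' protocols. The authors deposited RSEM tables on mm9, per the submitters' processing notes. The authors' expected counts were not normalized and were rounded to whole numbers here; the deposited TPM values, scaled by the authors for length and library size, served in alternatives. Rows carry NCBI gene numbers, named from the GRCm38 RefSeq table, which also gave chromosome and gene order; because builds differ, no coordinates are given.

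Counts were fitted with edgeR 4.0.16 (R 4.3.3): filterByExpr kept 10265 genes, TMM scaling, 1 quasi-likelihood fit of all 7 libraries, adjusted p under 0.05. Ctrl has 1 library, so the spread rests on WT and pKO (2 residual degrees of freedom, biological coefficient of variation 0.294), and Ctrl is assumed to vary like them. Log2 ratios used a prior count of 2. Counts by size took features at 20 CPM or more in Ctrl or in the WT library or libraries concerned, 2-fold apart, "within" being 1.5-fold.

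The text names the genes with the smallest p (5), the largest ratios in each class (up to 12 each way outside both WT, 10 for WT2 only, 5 for WT1 only), up to 4 per list, and the locus genes; others were picked after their values were seen. Of 706 entries in 35 gene lists, 686 matched a single row, 16 a merged row and 4 none. Members and lists were chosen with earlier results of these data known. The fits were tested on simulated data. Alternatives used limma 3.58.1, DESeq2 1.42.0, other scalings, floors and folds, and libraries left out. Some items are not reported here.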

Additional observations from a re-analysis of the deposited data

How the results depend on the processing

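No paired analysis was possible because Ctrl carries no replicate number that it shares with a WT library. For Ctrl against WT, each alternative test (edgeR, DESeq2, limma) called 0 genes except edgeR without the filter on low counts, which called 4. For Ctrl against pKO, pInv and KD, that setting gave 6 and limma on log2(TPM + 0.1) gave 56, 55 of them lower in Ctrl, such as the macrophage genes Csf1r and Adgre1, which have no count in Ctrl; macrophage markers sum to 433 CPM in KD, 73.6 in Ctrl and 71.3 to 137 in the other 5. Leaving out 1 library gave 0 to 0 calls for the first and 0 to 1 for the second, the 1 being the copy of H2ac23 without pKO1. Outside both WT libraries, 21 features became 128 at 1.5-fold, 1 at 3-fold, 71 at a floor of 10 CPM, 8 at 50 CPM and 35 with the 45S precursor left out, which lifts every CPM over the same floor. With 1 WT library as the only reference the count was 95 (WT1) to 744 (WT2), so it rests on WT1 being there; against pKO2 and pInv, wild type by the genotype field, it was 17, Immt and Chmp3 included. The chromosome 6 run left out gave 17. Features away from WT2 only went from 597 to 1597 at 1.5-fold, 150 at 3-fold and 277 at 50 CPM. Features away from WT1 only went from 40 to 281, 4 and 9, and to 118 at 10 CPM. Scaling by library totals moved the median of all genes to −0.11 against WT1 and 0.14 against WT2. Of the class genes recomputed under 4 other scalings, no ratio changed sign, and 5 values dropped under 2-fold (Vcan 1 time, Polr1a and Hprt 2 times each). Depth limits genes under 20 CPM, and 1 Ctrl library limits every comparison.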

Other observations

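Interferon-stimulated genes, which cells switch on in response to viral nucleic acid, were below both WT libraries in 11 of 21 tested and above both in 5, most of them at low levels, where all genes had 28.3% and 28.0%. Irf9, a subunit of the factor that drives them, had 10.7 CPM in Ctrl, 18.7 in WT1 and 20.4 in WT2, and H2-K1, a class I histocompatibility gene, had 10.2, 27.0 and 10.2. Ddx3y, a Y-linked RNA helicase, had 34.5 CPM in Ctrl, 24.4 in WT1 and 16.2 in WT2, and Xist, the non-coding RNA of X inactivation, had 8.63, 5.62 and 12.6. Among genes active in germ cells, Tex15, which guards meiotic and transposon silencing, had 22.3 CPM in Ctrl against 8.996 and 13.2 in WT, and 20.5 to 32.7 in the other 4 libraries. Cd63, a tetraspanin of late endosomes, had 498 CPM in Ctrl against 295 and 224, and 299.9 to 491 elsewhere, with a log2 difference from WT of 0.94 (SE 0.35, edgeR adjusted p of 1).

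Running medians over 11 neighbouring genes also had extreme windows in WT2, given here as values chosen after they were seen. The values of the other libraries at these windows are not given. The lowest WT2 window, a log2 value of −1.23 against the other libraries, was centred on Mapk8 on chromosome 14, and the highest, 0.93, on Tnfaip1 on chromosome 11.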
